A study of Canis lupus familiaris with 28 samples.

Results

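*ITPR3*, *UTRN*, *CNKSR3* and *MBP* are 4 genes picked from the study's supplementary differential expression tables as lower in tumors than in controls. They are 4 of the 32704 Ensembl identifiers counted, and 4 of the 1126 identifiers that those tables pair with a readable name. *CNKSR3* is named by its human homolog only, and the other members by a dog symbol. The identifiers are ENSCAFG00000001130 for *ITPR3*, ENSCAFG00000000326 for *UTRN*, ENSCAFG00000000562 for *CNKSR3* and ENSCAFG00000000016 for *MBP*. Because the tumor and control values chose these genes, their tumor to control difference is given as a description with no test.

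RNA was sequenced from histiocytic sarcoma (HS), a malignancy of macrophage and dendritic cells, taken from 18 Bernese Mountain Dogs (BMDs). Of the tumors, 15 were labelled HS and 3 hemophagocytic HS (HHS). The 6 controls comprised blood from 3 unaffected BMDs and, from German Shepherd Dogs, 1 sample each of liver, lung and spleen. The HS cell lines BD and OD came from BMDs and PJ from a Rottweiler. DC3F9, labelled "unstim" (unstimulated), holds dendritic cells grown from the blood monocytes of 1 mongrel dog with GM-CSF and IL-4. The labels used here state no treatment of the dogs and no age. Each cell line is 1 library, DC3F9 is 1 library, and spleen, lung and liver are 1 library each, so none of these has a replicate of its own.

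*ITPR3* encodes an inositol trisphosphate receptor, a channel through which the endoplasmic reticulum releases calcium after receptor signalling. *UTRN* encodes utrophin, the autosomal relative of dystrophin, which ties the actin cytoskeleton to a membrane complex. *CNKSR3* encodes a scaffold protein that promotes sodium uptake through the epithelial sodium channel (ENaC) and touches MAPK signalling. *MBP* encodes myelin basic protein of myelinating glia, and the same locus makes the longer golli proteins, which immune cells also carry. The counts are per gene and do not separate isoforms.

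Levels are given first as raw-count CPM, the reads counted on a gene per 1000000 reads counted on all genes of its library. A tumor had 99701394 to 171815073 such reads in all, a control 133524755 to 180801439 and a cell library 82007857 to 131518875. The second scale, TMM-scaled CPM, corrects the library total for a few genes taking a large share. The liver control had a TMM factor of 0.342, and its hepatocyte markers summed to 6468 CPM against 1.32 to 1261 CPM in tumors, so its values depend on the scale. The study's differential expression tables list blood, spleen and lung as controls and not liver, and "the 5 controls" below are blood, spleen and lung. The count columns of blood carry another header prefix (HT5GWDSXX) than those of the tumors, spleen and lung (HVTWLDSXX). The prefix is read here as the flow cell, which no label states. Tissue, breed and flow cell thus cannot be told apart between blood and the organ controls. In bulk samples, fewer cells of a type and less RNA per cell cannot be told apart either.

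*ITPR3*, the calcium channel, was low in every tumor next to blood, spleen and lung. Its raw-count CPM in the 18 tumors was lowest at 1.75 in HS29, a spleen tumor, had a median of 9.11 and was highest at 35.5 in HS4, a thoracic mass. The blood controls stood at 57.5, 82.7 and 120.7 CPM, the spleen control at 83.9 CPM and the lung control at 53.4 CPM. No tumor reached any of these 5 controls. The liver control held 3.12 CPM, above 3 of the 18 tumors and below the other 15. The order of the controls was thus blood and spleen first, then lung, with liver among the lowest tumors, and the spleen and lung values fell near or within the range of the 3 blood libraries.

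*UTRN*, the actin linker, showed the same separation. The tumors ran from 11.8 CPM in HS14, a thoracic tumor, through a median of 51.4 CPM to 140.6 CPM in HS35, a lung tumor. The blood controls held 298.0, 318.6 and 319.3 CPM, the spleen control 210.5 CPM and the lung control 396.7 CPM. Lung was the highest library for *UTRN* on this scale, and all 5 controls were above all 18 tumors. The liver control had 60.4 CPM, above 12 tumors and below 6.

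*CNKSR3*, the scaffold, was at 2.56 CPM in its lowest tumor, HS27 from lung, at 9.08 CPM in the median tumor and at 28.8 CPM in HS35. The blood controls held 48.7, 54.1 and 57.4 CPM, lung 45.7 CPM and spleen 32.9 CPM. Spleen was the closest of the 5 controls, only 1.14 times HS35. The liver control, at 8.32 CPM, was above 9 tumors and below 9. HS35 was thus the highest tumor for both *UTRN* and *CNKSR3*.

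*MBP* was the member with overlap. The tumors ran from 3.13 CPM in HS37, a thoracic tumor, through a median of 9.07 CPM to 25.6 CPM in HS51, a spleen tumor. The blood controls held 34.9, 57.99 and 59.02 CPM, the spleen control 29.3 CPM and the lung control 21.1 CPM. HS51 exceeded the lung control, and the other 17 tumors were below it. In TMM-scaled CPM 3 tumors exceeded lung (16.3), namely HS51 (20.1), HS52 (17.6) and HS53 (16.4). The liver control had 6.24 CPM, above 4 tumors.

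**Figure D1:**
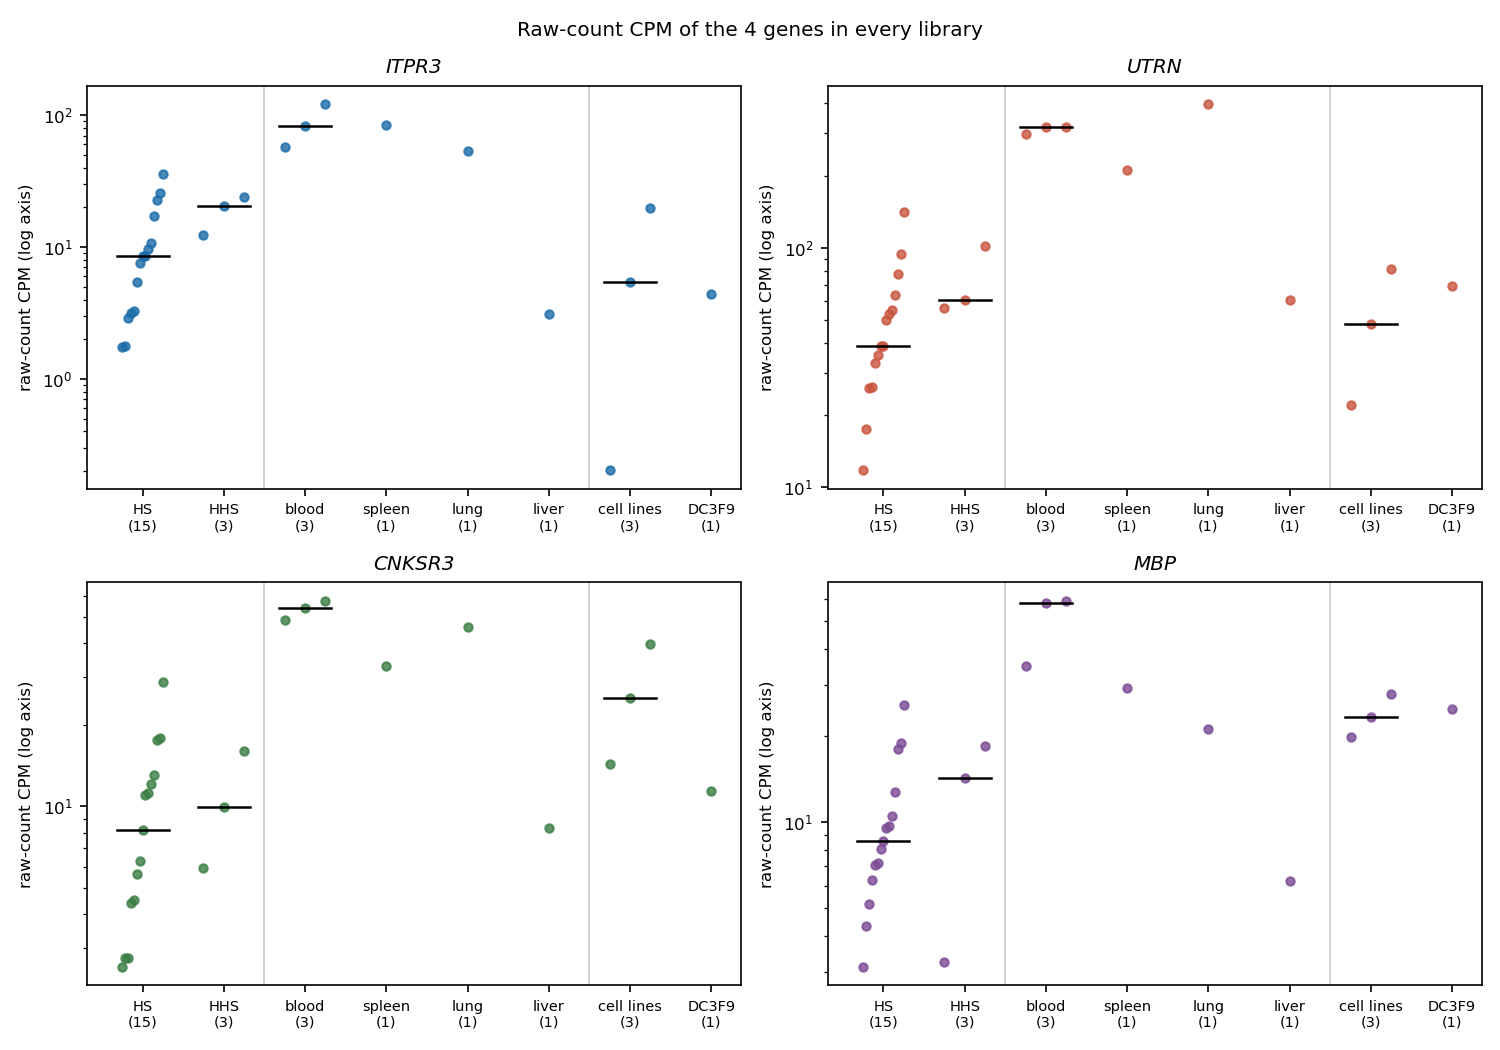
Raw-count CPM (log axis) of *ITPR3*, *UTRN*, *CNKSR3* and *MBP* in every library, with 1 point per library and a black line at the median of each group of 3 or more. Blood, spleen and lung lie above the tumors except for *MBP*, where HS51 at 25.6 CPM passes the lung control at 21.1 CPM, and liver lies among the tumors.

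For *MBP* and *CNKSR3* every blood library was farther from the tumors than spleen or lung, while for *ITPR3* and *UTRN* an organ control stood as far from the tumors as a blood library did. Against the tumor median, *ITPR3* was 6.32 to 13.3 times higher in blood, 9.21 times in spleen and 5.86 times in lung. *UTRN* was 5.80 to 6.21 times higher in blood, 4.10 times in spleen and 7.72 times in lung. The farthest control was therefore a blood library for *ITPR3* and, in raw-count CPM, lung for *UTRN*. In TMM-scaled CPM *UTRN* was at 319.04, 328.08 and 263.5 in blood and 305.9 in lung, so that lung lay within the range of blood. *CNKSR3* was 5.36 to 6.32 times higher in blood, 3.62 times in spleen and 5.04 times in lung. *MBP* was 3.85 to 6.51 times higher in blood, 3.23 times in spleen and 2.33 times in lung.

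The liver control depended most on the scale. In raw-count CPM the liver control was 0.343 times the tumor median for *ITPR3*, 1.18 times for *UTRN*, 0.917 times for *CNKSR3* and 0.689 times for *MBP*. In TMM-scaled CPM these ratios were 1.14, 3.97, 2.97 and 2.08. On that scale all 18 tumors were below liver for *UTRN* and *CNKSR3*, 17 for *MBP* and 10 for *ITPR3*. *ITPR3* lay well inside the tumor range in liver on both scales, while *UTRN* and *CNKSR3* left that range under TMM scaling.

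**Figure D2:**
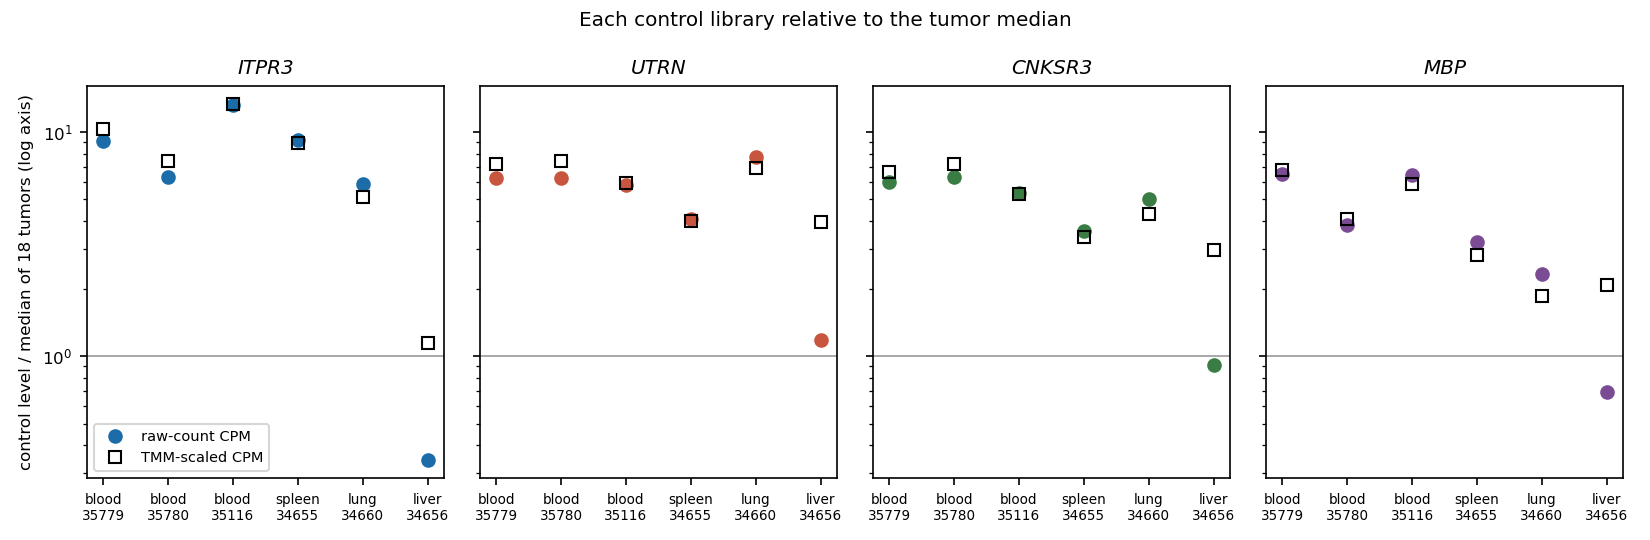
Level of each control library divided by the median of the 18 tumors (log axis), for the 4 genes, as raw-count CPM (filled circles) and TMM-scaled CPM (open squares); the grey line marks the tumor median. Blood, spleen and lung change less between the scales than liver, which moves from 0.917 to 2.97 times the median for *CNKSR3*.

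Over all genes, tumors rarely lay wholly below the controls. Of the 14197 genes with a mean of at least 1 raw-count CPM, 1.23% had every tumor below all 5 controls, and *ITPR3*, *UTRN* and *CNKSR3* were among them. With liver as a sixth control the share was 0.141%, with 0 members. Every tumor lay below all blood controls in 8.4% of genes, with all 4 members, and below both spleen and lung in 7.52%, with 3 members, *MBP* being the exception. Every tumor lay below the liver control in 6.58% of genes, with 0 members. In TMM-scaled CPM the shares were 1.1% for the 5 controls, 0.55% for all 6, 8.82% for blood, 5.86% for spleen and lung and 18.7% for liver, with 3, 2, 4, 3 and 2 members. The members were chosen for this contrast, so nothing is read from their presence in these counts.

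The fitted differences followed the same order. The edgeR log2FC of tumors minus the 5 controls was -2.63 (SE 0.46) for *ITPR3*, -2.43 (SE 0.31) for *UTRN*, -2.23 (SE 0.36) for *CNKSR3* and -1.89 (SE 0.34) for *MBP*. Of the 19430 genes tested, 1.91% were called lower in tumors (a log2FC beyond 1.5 and an adjusted p-value under 0.0005). The members were chosen on this contrast, so that they lie within this share is no result.

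Against blood alone the log2FC was -2.82 for *ITPR3*, -2.54 for *UTRN*, -2.46 for *CNKSR3* and -2.26 for *MBP*, with SEs of 0.36 to 0.54. Against spleen and lung alone, which share the tumors' flow cell, it was -2.31 (SE 0.66), -2.27 (SE 0.45), -1.79 (SE 0.53) and -1.07 (SE 0.51). Without blood the *MBP* value thus moved from -1.89 to -1.07. The other members had a log2FC beyond 1.5 against every one of these control sets.

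**Figure D3:**
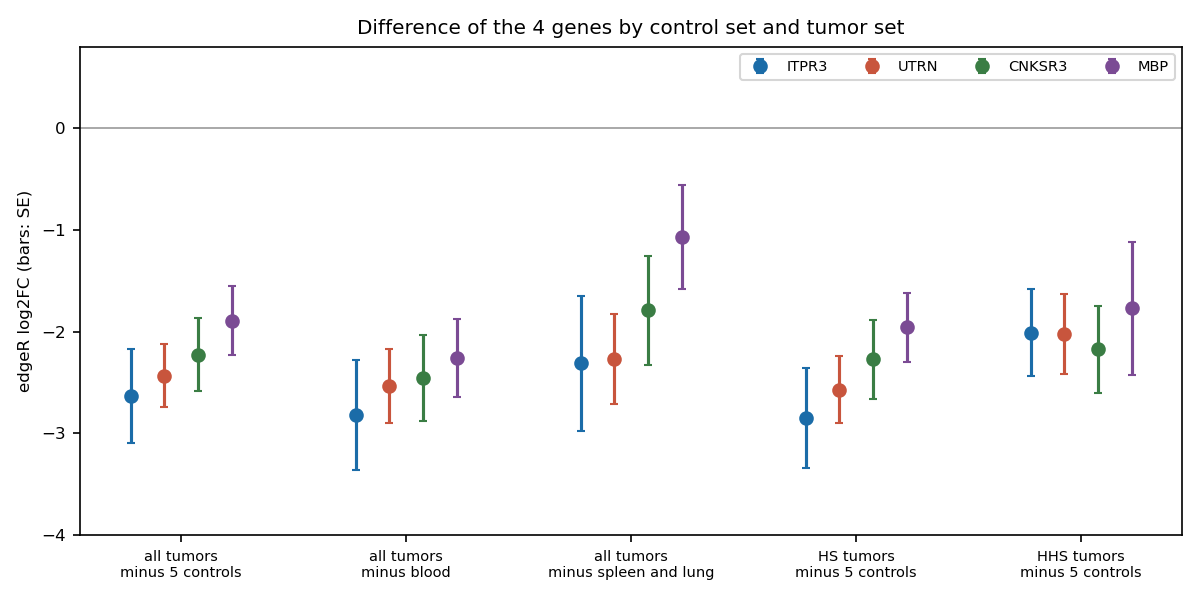
edgeR log2FC (points) with SE (bars) of the 4 genes for all tumors minus the 5 controls, minus blood, and minus spleen and lung, and for HS and HHS tumors apart. Every point lies below 0, and *MBP* against spleen and lung, at -1.07, lies closest to it.

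The control tissues were then compared with each other, a contrast that did not choose the members. In 3 blood against the spleen and lung controls, edgeR's quasi-likelihood test called 17.5% of 18870 genes (adjusted p-value below 0.05) and 0 of the 4 members. At an unadjusted p-value below 0.05 it counted 7078 genes, *MBP* among them, and DESeq2 called 5436 genes. *MBP* had the largest difference, with a log2FC of 1.16 higher in blood, a 95% interval of 0.25 to 2.07 and an adjusted p-value of 0.0765 by edgeR. *CNKSR3* was 0.62 higher (interval -0.07 to 1.30), *ITPR3* 0.48 higher (interval -0.50 to 1.45) and *UTRN* 0.22 higher (interval -0.68 to 1.12), with edgeR adjusted p-values of 0.166, 0.427 and 0.701. With 5 libraries a member's difference between blood and organs was not resolved, and the *UTRN* log2FC was -0.13 when the spleen control was left out. DESeq2 gave *MBP* an adjusted p-value of 0.0186, with a log2FC of 1.21 that is under the cutoff of 1.5.

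The controls differed from the tumors, and from each other, in markers of several cell types. The summed raw-count CPM of 7 T and NK cell markers (such as *THEMIS* and *CD226*) was 944 to 1431 in blood, 295 in spleen, 66.9 in lung, 11.4 in liver and 38.6 to 330 in tumors. Of these 7 markers, *SAMD3* alone was below 0.1 CPM in every tumor, and it was at 0 in lung. The 5 myeloid markers, of the lineage of HS itself, summed to 9586 to 13209 CPM in blood, 1420 in spleen and 489 in lung. They summed to 985 to 7410 CPM in tumors and 756 to 1374 CPM in the HS cell lines. *LYZ* alone was at 7838 to 11892 CPM in blood. *TNF* went the other way, with a tumor median of 15.6 CPM against 5.87 to 10.6 CPM in blood. The 3 platelet and erythroid markers summed to 47.9 to 115 CPM in blood and 0.18 to 44.9 CPM in tumors. Endothelial markers (4 genes) reached 824 CPM in lung and 177 CPM in spleen against 5.32 to 132 CPM in tumors and 9.07 to 21.4 CPM in blood. The 6 epithelial markers reached 2174 CPM in lung, against 3.75 to 63.8 CPM in tumors. The part of these cell types in the members' differences was not tested.

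*MBP* is a marker of myelinating glia in nervous tissue, so the other glial genes were checked. *SOX10* and *CDH19*, from a glial list of 5 genes, were both below 0.1 CPM in every blood library, with *CDH19* at 0. There *MBP* was at 34.9 to 59.02 CPM. The spleen control held 2.95 CPM of *SOX10* and 26.4 CPM of *CDH19* beside 29.3 CPM of *MBP*, and the lung control 0.299 and 0.189 CPM beside 21.1 CPM of *MBP*. In tumors *SOX10* reached at most 0.755 CPM and *CDH19* 0.496 CPM, each with a median of 0. In DC3F9 both were at 0 with *MBP* at 24.7 CPM. The rest of the list was present. *QKI* was at 61.6 to 97.8 CPM in blood, 138.8 CPM in DC3F9 and a median of 70.9 CPM in tumors. *ERBB3* was at 4.17 to 9.21, 5.29 and 2.99 CPM in the same order, and *FABP7* at 0.089 to 0.607, 1.07 and 2.42 CPM. The glial part in the *MBP* level of the spleen control was not tested. Of the 4 tested genes of the glial list, 0 were called in tumors minus controls. Of all 19430 genes tested there, 2.77% were called in either direction. *FABP7*, a lipid carrier, had a log2FC of 3.58, *SOX10*, a glial transcription factor, of -2.72 and *ERBB3*, a neuregulin receptor, of -2.18.

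Genes that work beside the members and genes near them were then counted. These lists are too short for their counts of called genes to be read against the share of 2.77% over all genes. The lists hold only genes named in the study's tables, which report these same samples, so they are not independent evidence of direction. Of 13 genes of inositol trisphosphate and calcium signalling, 12 were tested in tumors minus controls and 0 were called, with a median log2FC of -0.14 against -0.01 over all genes. The largest fitted values were for *TRPC7* (6.07) and *AVPR1A* (5.74), a calcium channel and a vasopressin receptor, and for *NMBR* (2.25), a peptide receptor whose mean log2 CPM was instead lower in tumors (-4.02) than in controls (-2.58). None of the 3 passed. Of 10 genes of the utrophin complex and actin linkage, 0 were called, with a median of -0.41. There *ITGA7*, a laminin receptor subunit, had a log2FC of 3.96, *SYNE1*, a nuclear envelope linker, of -1.84 and *PARVG*, an actin-binding adaptor, of -1.51.

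In the ENaC and MAPK list 1 of 10 tested genes was called. All 10 had a negative log2FC, with a median of -0.98. *SGK1*, the kinase that acts with CNKSR3 on ENaC, fell by 3.41 on the log2 scale (SE 0.44). Its tumor median of 34.9 CPM was below blood (255 to 843 CPM) and lung (143 CPM) but not below spleen (33.3 CPM). The stress kinases *MAPK13* and *MAPK14* had log2FC of -1.87 and -1.75 and did not pass. *SGK1* also separated the control tissues, with a mean log2 CPM of 9.07 in blood and 5.80 in spleen and lung, though that difference did not pass (log2FC 3.06, edgeR adjusted p-value 0.0664). *MAPK13* and *MAPK14* were called higher in blood there, by 3.36 and 2.54.

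Genes lying near the members were mixed. In RefSeq's gene order (assembly UU_Cfam_GSD_1.0, used for order alone) *STX11* lies next to *UTRN*, *TIAM2* near *CNKSR3* and *ZNF236* next to *MBP*. Of 5 tested genes near *ITPR3*, 0 were called in tumors minus controls, where *GRM4*, *HMGA1* and *BAK1* had log2FC of 2.06, 1.99 and -0.32. Of 5 near *UTRN* 1 was called, *STX11*, a vesicle fusion protein of killer lymphocytes, at -2.95, while *SHPRH* and *EPM2A* stood at -0.77 and 0.62. Of 7 near *CNKSR3* 2 were called, *MYCT1* at -3.24 and *TIAM2*, a Rac activator, at -3.001, while *VIP*, a neuropeptide at -4.29, was not. *MYCT1*, also on the endothelial list, was at 264.7 CPM in lung, 3.33 to 16.6 CPM in blood and a median of 6.70 CPM in tumors. The lists reach past the 3 nearest genes on each side in RefSeq's order. *GRM4*, *HMGA1*, *MYCT1* and *VIP* lie outside those, while *TFB1M*, at place 3 from *CNKSR3*, was not listed. Of 7 near *MBP* 0 were called, with *GALR1* at 3.45, *ZNF236* at -1.62 and *ZNF516* at -1.34. *STX11*, *TIAM2* and *ZNF236* were also called higher in blood than in spleen and lung, by 3.72, 2.33 and 1.95.

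Within the tumors the members varied widely, and no difference by diagnosis was resolved. In HHS minus HS tumors edgeR called 0 of 19853 genes (0%), with 797 at an unadjusted p under 0.05 and 1 gene by DESeq2. *ITPR3* was at 12.4, 20.5 and 23.9 CPM in the 3 HHS tumors and at 1.75, 8.49 and 35.5 CPM (lowest, median and highest) in the 15 HS tumors. Its log2FC of 0.85 had a 95% interval of -0.51 to 2.20. *UTRN* was 0.54 higher (interval -0.37 to 1.46), *CNKSR3* 0.09 (interval -1.06 to 1.24) and *MBP* 0.17 (interval -0.85 to 1.19). The edgeR adjusted p-values ran from 0.943 to 0.991, and the intervals allow changes in either direction. Against the 5 controls, HS tumors had log2FC of -2.85, -2.57, -2.27 and -1.96 and HHS tumors of -2.01, -2.02, -2.17 and -1.77 for *ITPR3*, *UTRN*, *CNKSR3* and *MBP*.

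No difference by site was resolved either. Lung minus liver tumors (6 against 4) gave 0 called of 17671 genes (0%) by edgeR, with 907 at an unadjusted p under 0.05 and 99 genes by DESeq2. *ITPR3* was at 3.25 to 12.4 CPM in lung tumors and 1.79 to 23.9 CPM in liver tumors, and *MBP* at 7.17 to 18.8 CPM and 6.27 to 14.2 CPM. The log2FC was -0.67 (interval -2.08 to 0.73) for *ITPR3*, -0.09 (-1.08 to 0.90) for *UTRN*, 0.04 (-1.15 to 1.23) for *CNKSR3* and 0.38 (-0.49 to 1.25) for *MBP*, each with an edgeR adjusted p-value of 1. The mean log2 CPM of *CNKSR3* went the other way, 3.15 in lung and 3.36 in liver tumors, and that of *ITPR3* was 2.88 at both sites. Of the 3 thoracic tumors, HS14 and HS37 held the lowest *UTRN* levels of all tumors, at 11.8 and 17.5 CPM. The other, HS4, had 39.0 CPM of *UTRN* and the highest *ITPR3*. The 2 spleen tumors lay far apart for *ITPR3*, at 1.75 and 25.7 CPM, and for *MBP*, at 5.19 and 25.6 CPM.

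Over the 18 tumors, *UTRN* and *CNKSR3* rose and fell together. On TMM-scaled log2 CPM their Pearson r was 0.72 (permutation p-value 5.9e-04, adjusted 0.00354 over 6 pairs) and their Spearman rho 0.70 (adjusted permutation p-value 0.0109). Without the 2 tumors farthest from the *UTRN* median, HS14 and HS37, r was 0.74. *ITPR3* and *UTRN* had an r of 0.49 (adjusted permutation p-value 0.103) and a rho of 0.57 (adjusted permutation p-value 0.0463). The other 4 pairs had r from 0.26 to 0.47 and adjusted permutation p-values of 0.103 to 0.295. All tumors shared 1 flow cell, so no split by batch was made.

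**Figure D4:**
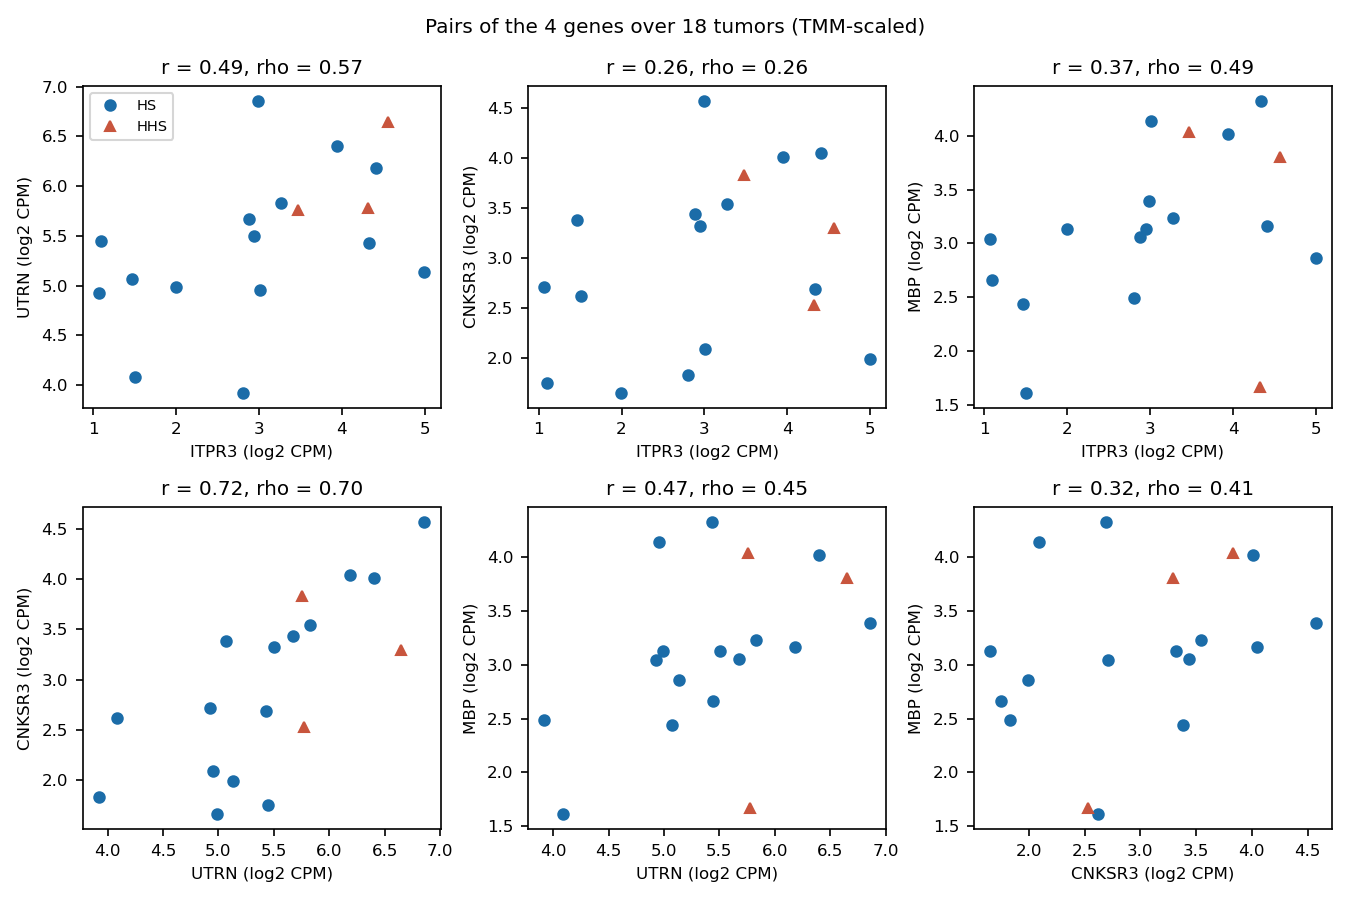
The 6 pairs of the 4 genes over 18 tumors as TMM-scaled log2 CPM, with HS tumors as circles and HHS tumors as triangles. *UTRN* and *CNKSR3* form the tightest pair, with r = 0.72.

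The named genes most like each member over the 18 tumors were mostly not other members. Genes were ranked by Pearson r, as a description, among the 763 named genes that averaged 1 log2 CPM or more. *ITPR3* was closest to *PTPRB* (0.87), a phosphatase on the endothelial list, *L3MBTL3* (0.83) and *DLA-DOA* (0.77). *PTPRB* was not confined to samples with endothelium. It was at 3.51, 16.1 and 31.8 CPM in OD, PJ and BD and 9.28 CPM in DC3F9, against 0.555 to 15.8 CPM in tumors. *UTRN* was closest to *TAB2* (0.79), *ZNF236* (0.79) and *SYNJ2* (0.78). *CNKSR3* was closest to *WDR7* (0.91), *QKI* (0.88), an RNA-binding protein, and *BCLAF1* (0.88). *MBP* was closest to *RRM2B* (0.67), its neighbour *ZNF236* (0.62) and *PQLC1* (0.61). *CNKSR3* ranked 10 among the genes most like *UTRN*, but *UTRN* ranked only 69 among those most like *CNKSR3*. No other member ranked above 41 for any member.

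Relations with the marker lists were looked at after these values were known. Over the 18 tumors *ITPR3* had an r of 0.73 and a rho of 0.73 with the 4 summed endothelial markers on TMM-scaled log2 CPM, but these include *PTPRB*, the gene already found most like it, so no p-value is given. Without *PTPRB* r was 0.65 and rho 0.58, and neither passed over 24 relations (adjusted permutation p-values 0.0912 and 0.16). HS33, with 5.32 CPM of endothelial markers, had 3.19 CPM of *ITPR3*, and HS4, with 78.4 CPM, had 35.5 CPM. HS39, with the most endothelial markers at 132 CPM, had 17.1 CPM of *ITPR3*. In the blood controls *ITPR3* was 57.5 to 120.7 CPM with 9.07 to 21.4 CPM of these markers.

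*UTRN* and *CNKSR3* leaned the same way with the T and NK cell markers. Their r was 0.60 and 0.57 on TMM-scaled log2 CPM (adjusted permutation p-values 0.0927 for both) and 0.70 and 0.69 in raw-count CPM (adjusted permutation p-values 0.0106 for both). Without the 2 tumors with the most extreme list level, r on the TMM scale was 0.67 and 0.45 (adjusted permutation p-values 0.0622 and 0.62). The HS cell lines also held 29.7 to 115 CPM of these markers, with *TAGAP* at 57.4 CPM in BD, 99.1 CPM in OD and 9.66 CPM in PJ. HS35, highest for both genes, had 145 CPM of these markers, and HS50, with the most at 330 CPM, had 77.5 CPM of *UTRN* and 17.6 CPM of *CNKSR3*. The part of endothelial or lymphoid cells in these levels was not tested.

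**Figure D5:**
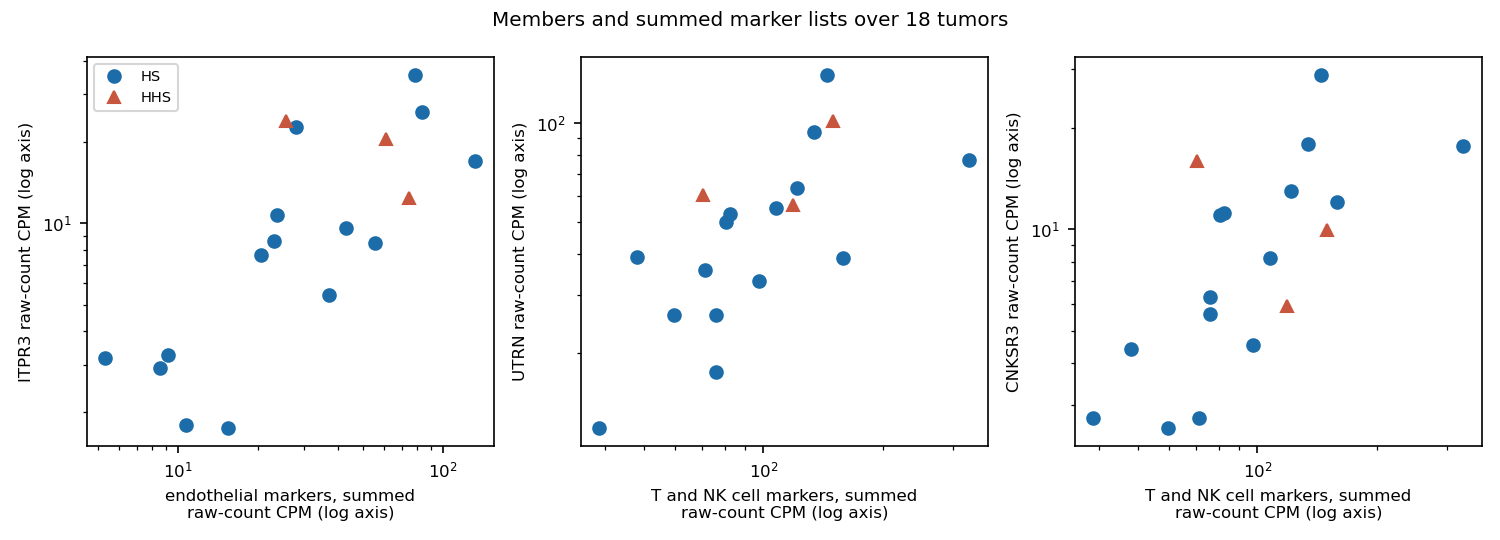
Raw-count CPM of *ITPR3* against the summed endothelial markers, and of *UTRN* and *CNKSR3* against the summed T and NK cell markers, in 18 tumors (both axes log), with HS tumors as circles and HHS tumors as triangles. HS4 stands at 78.4 CPM of endothelial markers and 35.5 CPM of *ITPR3*.

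In culture the members shared no direction. The cell libraries were counted in a table of their own after another library preparation, so their levels can be set beside the tissues only roughly. *ITPR3* was at 0.203 CPM in BD, 5.43 CPM in PJ and 19.8 CPM in OD, against 4.40 CPM in DC3F9. *UTRN* was at 22.1 CPM in OD, 48.0 CPM in PJ and 81.2 CPM in BD, against 69.4 CPM in DC3F9. For *ITPR3* the lines lay on both sides of DC3F9, on the TMM scale too. For *UTRN* they did so in raw-count CPM only, since in TMM-scaled CPM DC3F9, at 87.4, was above BD (73.8), PJ (44.6) and OD (20.7). OD and BD stood at opposite ends for both genes.

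*CNKSR3* was at 14.4, 25.1 and 39.8 CPM in OD, PJ and BD, all above the 11.4 CPM of DC3F9 and, in BD, above the highest tumor. In TMM-scaled CPM OD, at 13.5, was instead below DC3F9, at 14.3. *MBP* was at 19.8, 23.2 and 28.0 CPM in OD, BD and PJ, on both sides of the 24.7 CPM of DC3F9. In TMM-scaled CPM DC3F9, at 31.1, was above all 3 lines (18.6, 21.1 and 26.0). In raw-count CPM OD and BD were above 17 of the 18 tumors for *MBP*, and PJ was above all 18. TMM factors were computed apart for tissue and cell libraries, so tumors and lines were compared in raw-count CPM only.

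Cell lines minus DC3F9 gave 0 called of 18121 genes (0%) by edgeR, with 2788 at an unadjusted p under 0.05 and 1796 genes by DESeq2. The log2FC was 0.49 for *ITPR3* (95% interval -5.04 to 6.03), -0.94 for *UTRN* (-2.83 to 0.96), 0.74 for *CNKSR3* (-1.16 to 2.65) and -0.53 for *MBP* (-1.75 to 0.68), with edgeR adjusted p-values of 0.57 to 0.928. For *ITPR3* the mean log2 CPM went the other way, 1.42 in the lines against 2.48 in DC3F9, with BD at 0.203 CPM. Without OD its log2FC was -1.12. With 1 control library, the intervals of all 4 members included 0. Of the 10 tested ENaC and MAPK genes 0 were called. *SGK1*, lower in tumors than in the pooled controls, had a log2FC of 2.33 in the lines (edgeR adjusted p-value 0.129).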

How the data were processed

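Per the labels and the methods, the authors used cutadapt 3.7 for trimming, STAR 2.7.10a for alignment to the CanFam3.1 genome and HTSeq 2.0.0 for counting per gene. The deposited values are raw counts for 32704 identifiers, without normalization. The strand option and annotation release were not given in the sources used here, so overlapping genes may share reads. The labels name a total RNA kit for all libraries and the methods an mRNA kit for the cell lines.

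From these counts, CPM was computed with Python 3.11.15, and log2FC with R 4.3.3 and edgeR 4.0.16 (TMM factors, filterByExpr, quasi-likelihood test, Benjamini-Hochberg over all genes tested; log2 CPM with a prior count of 2), which loads limma 3.58.1. DESeq2 1.42.0 was an alternative. A gene was called where its log2FC was beyond 1.5 in size and its adjusted p-value below 0.0005 in tumors minus controls, or below 0.05 elsewhere. Correlations used 100000 two-sided permutations. Named genes were the members, the 3 largest absolute log2FC in each pathway and neighbour list, marker genes and the 3 genes most alike per member. The scripts were tested on simulated counts. In the 2 smallest designs (cell lines minus DC3F9, and blood minus spleen and lung) the size of change set for the tumor designs was tried first and no changed gene was recovered, so a much larger size was then used for those 2 alone. A call missed there therefore says little about changes of moderate size. The members and lists were chosen with earlier results of these data known. The spread measured is between libraries, each from 1 dog or culture. At these depths 3 counts, the smallest level shown, cover counting error only. The RefSeq table matched 0 Ensembl identifiers and 4 member gene numbers, and no genome was used here, so no coordinates or sequences are given.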

Additional observations from a re-analysis of the deposited data

Results flagged for a closer look

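In the 6 lung tumors, *UTRN* stood apart in HS35, at 141 CPM, where its gap to the next tumor was 0.698 of the whole range, above the critical value of 0.625 for 6 samples. *CNKSR3* was also highest in HS35, at 28.8 CPM, but was not singled out. The check used raw-count CPM without a log and was not made on the log2 scale of the correlations, where gaps at the top shrink. This was 1 of 12 sets of values checked for a sample far from the others (4 genes in lung tumors, in liver tumors and in the 5 controls), and chance alone gives about 1 in 20.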

How the results depend on the processing

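No comparison was paired, since each set samples of different dogs against each other. Every alternative for tumors minus controls kept the members negative, and leaving out 1 control gave -2.77 to -2.46 for *ITPR3*, -2.55 to -2.37 for *UTRN*, -2.35 to -2.10 for *CNKSR3* and -2.07 to -1.70 for *MBP*, and *MBP* stood at -1.07 against spleen and lung alone. Of 253 results under alternatives, 224 kept their direction and side of the threshold, moved within the spread or, for counts of called genes, stayed within a set ratio. The cause of the following changes was not tested, beyond fewer samples where some were left out.

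The genes called in tumors minus controls (539) were 1721 by DESeq2, 1251 against blood, 222 against spleen and lung, 336 for HS tumors alone and 222 to 581 without 1 control, with 222, 261 and 314 when blood 35779, 35780 or 35116 was left out. In blood minus spleen and lung (3305) DESeq2 called 5436, and leaving out 1 control gave 129 to 4411, with 129 without blood 35779, 479 without 35780 and 1286 without 35116. Cell lines minus DC3F9 gave 1796 by DESeq2, 28 without a filter on low counts and 0 without any 1 line. HHS minus HS gave 1 by DESeq2 and 4 without that filter, and lung minus liver tumors 99 by DESeq2.

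Signs turned only where the fitted value was not called. In the cell lines *ITPR3* ranged from -1.12 (without OD) to 1.07. In HHS minus HS, *CNKSR3* ranged from -0.23 to 0.35 and *MBP* from -0.18 to 0.61, both lowest without HS53. In lung minus liver tumors *CNKSR3* ranged from -0.13 to 0.27 and *UTRN* from -0.32 to 0.29 without 1 liver tumor, and HS tumors alone gave 0.30 for *UTRN* and -0.077 for *CNKSR3*. In blood minus spleen and lung, *UTRN* ranged from -0.13 to 0.69. In raw-count CPM the correlations of *ITPR3* with *UTRN* (r = 0.60) and of *UTRN* with *MBP* (r = 0.59) passed, each with an adjusted permutation p-value of 0.0223.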
